A study of Mus musculus with 18 samples.

Results

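The genes described here encode oxidative phosphorylation, the mitochondrial pathway of electron transport and ATP synthesis. A member was any gene whose GRCm38 mouse symbol begins with Nduf, Uqcr, Atp5, Cox4 to Cox8, Sdha to Sdhd, mt-Nd, mt-Co, mt-Cytb or mt-Atp. The prefixes matched 124 symbols, from which 9 with a -ps symbol and 4 more annotated as processed pseudogenes (Cox6c2, Ndufa11b, Ndufb4c and Ndufs6b) were left out. This left 111 members of the 55487 genes in the tables. Of these, 98 were nuclear and 13 were encoded by mitochondrial DNA. The nuclear members comprised 85 subunits, with 36 of complex I, 4 of complex II, 8 of complex III, 20 of complex IV and 17 of complex V, and 13 assembly factors.

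Islets of Langerhans from adult C57BL/6 mice were cultured for 20 h without or with 5 ng/mL IFNγ, a cytokine released by T cells. The islets were then dispersed and endocrine cells were sorted by FACS as Epcam+ cells that lacked CD45, TER119 and CD31. Delta cells were the CD24-high population, alpha cells were CD24-low and CD71-, and beta cells were CD24-low and CD71+. Total RNA of each sorted population was sequenced, which gave 18 libraries in 6 groups of 3 (alpha, beta and delta cells, each as control or IFNγ). All groups shared the wild-type strain and the islet culture. A population defined by surface proteins is a model of a cell type only as far as the gate is pure, and in bulk RNA fewer cells of a type and less RNA per cell cannot be told apart.

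Complex I (NADH dehydrogenase), complex III (the cytochrome bc1 complex), complex IV (cytochrome c oxidase) and complex V (ATP synthase) are built from subunits of both genomes, whereas complex II (succinate dehydrogenase) is entirely nuclear. Mitochondrial DNA is transcribed into long polycistronic RNAs that are cut into individual mRNAs, so its messages share promoters that no nuclear subunit has. In beta cells, ATP made by this pathway closes potassium channels and links glucose metabolism to insulin secretion.

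Library totals ran from 6128845 to 11531734 counts, and 17338 genes passed the filter on low counts. The sorted populations carried their markers, since 7 of 7 alpha cell markers were higher in control alpha than beta cells, 8 of 8 beta cell markers were lower, and 5 of 5 delta cell markers were higher in control delta cells than in beta cells. All 8 genes of a check list for IFNγ rose with IFNγ in each cell type. Digestive enzyme transcripts of acinar cells summed to 15.1 to 62.2 CPM in control alpha, 2.59 to 2520 in control beta and 1640 to 3400 in control delta libraries. CPM are counts scaled to the library total after its adjustment by TMM. Immune markers summed to 0.949 to 4.62 CPM with Cd3e at 0 in every group. Ins2 of beta cells had 1730, 6500 and 633 CPM in control alpha and 29900, 25300 and 29300 CPM in control beta libraries. Gcg of alpha cells had 1140, 2980 and 154 CPM in control beta libraries. A library of each of 2 groups stood apart from the others of its group on the measures below, delta control replicate 3 (14700 CPM of Sst against 35900 and 34800) and alpha IFNγ replicate 2. The share of counts on rRNA other than the 2 mitochondrial rRNAs, left after depletion, ran from 2.55% to 34.5%. The mitochondrial rRNAs summed to 6840 to 36200 CPM. The deposited name of beta control replicate 3 also carries the word papain, which the labels do not explain. The summary values of the comparisons that rest on these 3 libraries are given with and without them.

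Reads of the mitochondrial messages cannot all be placed on 1 genome. A stretch of chromosome 1, chr1:24611535-24616197 on the minus strand, holds 7 annotated copies of mitochondrial genes in the order of the mitochondrial genome, and 6 of them matched their mitochondrial gene at every aligned base. The mt-Co2 copy, Gm28661, was identical over 681 bases and received 389588 counts over the 18 libraries, against 32132 counts for mt-Co2 itself. The share of the combined reads placed on the copy ran from 82.0% to 98.4% by library. The mt-Co1 copy, Gm29216, had 483 aligned bases and 1 difference, A1066T, with positions counted from 1 at the first base of mt-Co1. Its reads were far fewer, 42074 against 1198953. The 60-base stretches of GENCODE transcripts below show why the first pair cannot be told apart by sequence while reads over 1 base of the second can; the capital marks the differing base, and the stretches are chrM:7013-7072 with chr1:24615506-24615565 and chrM:6390-6449 with chr1:24616129-24616188.
mt-Co2: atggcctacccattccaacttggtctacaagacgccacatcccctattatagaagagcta
Gm28661: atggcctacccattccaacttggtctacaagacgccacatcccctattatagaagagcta
mt-Co1: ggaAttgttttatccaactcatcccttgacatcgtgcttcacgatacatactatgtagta
Gm29216: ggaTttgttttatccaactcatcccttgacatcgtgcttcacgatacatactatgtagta
Levels of mt-Co2 on its own are therefore a remainder, and its values are also given with the copy's reads added. The mt-Atp6 copy, Gm10925, was identical over 678 bases and received 108253 counts, against 300059 for mt-Atp6, so levels of mt-Atp6 leave out these reads too.

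Per length, the mitochondrial messages stood far above the nuclear ones. In control beta cells, mean TPM (reads per transcript length, scaled to a fixed sum in each library) ± SD over 3 libraries were 7742 ± 3990 for mt-Atp8, 4780 ± 1700 for mt-Co1, 4042 ± 1300 for mt-Co3, 3972 ± 2260 for mt-Atp6 and 3769 ± 866 for mt-Nd4l. The values for mt-Atp8 rest on an effective length of only 25.2 to 83.4 bases by library, against 1330 to 1420 for mt-Co1, so a small error in length moves them. The other complex I messages lay between 1452 TPM for mt-Nd3 and 2647 for mt-Nd4, mt-Cytb of complex III had 2468 ± 766, and mt-Co2 had 382.4 ± 109 without the reads on its copy. The most abundant nuclear subunits all lay below mt-Co2. In complex V, the catalytic beta subunit Atp5b had 113.9 ± 17 TPM and the alpha subunit Atp5a1 84.84 ± 12.2. In complex IV, Cox6c had 88.33 ± 11.3 and Cox8a 86.81 ± 22.8. The accessory complex I subunit Ndufc1 had 83.82 ± 32.8 and Ndufv3 50.39 ± 13.3. In complex III, Uqcrq had 62.19 ± 30.4 and Uqcrb 56.25 ± 20.4, and in complex II the flavoprotein Sdha had 39.11 ± 7.54 and the iron-sulphur subunit Sdhb 20.60 ± 3.59.

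The summed levels of both genomes were set against each other in each library. The 13 mitochondrial members summed to 17460, 13440 and 8883 CPM in control alpha cells (replicates 1 to 3), to 36080, 47030 and 70110 CPM in control beta cells, and to 21310, 16310 and 32310 CPM in control delta cells. On this scale all control beta libraries were above all control alpha and delta libraries, and alpha and delta cells overlapped. In summed TPM beta and delta cells overlapped, since delta control replicate 3 (25600) lay above beta control replicate 1 (23670). The 85 nuclear subunits summed to 3158, 3304 and 3205 CPM in control alpha, 3970, 3634 and 3238 CPM in control beta, and 2732, 2841 and 2760 CPM in control delta cells. Delta cells were the lowest in every library, and the highest alpha library lay above the lowest beta library. The spread of the mitochondrial sum between libraries of 1 group was the wider of the pair, with 51100 ± 17400 CPM in control beta cells (mean ± SD, n = 3) against 3610 ± 366 for the nuclear sum.

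The balance was computed as the log2 ratio of the summed TPM of the mitochondrial members to that of the nuclear subunits. It was 2.36, 1.92 and 1.19 in control alpha, 3.08, 3.69 and 4.49 in control beta, and 2.85, 2.34 and 3.6 in control delta libraries. Group means ± SD were 1.83 ± 0.59, 3.75 ± 0.71 and 2.93 ± 0.63, ratios of 3.5, 13.5 and 7.6 on the linear scale. Control alpha and beta libraries did not overlap, with a difference of -1.93 (alpha minus beta), whereas delta cells overlapped both, at -0.82 against beta and 1.1 against alpha. Without beta control replicate 3 alpha minus beta was -1.56 and delta minus beta -0.45, and without delta control replicate 3 delta minus beta was -1.16 and delta minus alpha 0.77. With IFNγ the balance was 3.88, 1.72 and 3.52 in alpha, 2.55, 3.39 and 2.51 in beta, and 3.58, 3.50 and 2.82 in delta cells. The differences from control were 1.22, -0.93 and 0.37, and the treated and control libraries overlapped in each cell type. Leaving out alpha IFNγ replicate 2 moved the alpha value to 1.88, leaving out beta control replicate 3 moved the beta value to -0.57, and leaving out delta control replicate 3 moved the delta value to 0.70. No test was made of the balance, because it is a score over chosen members.

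**Figure D1:**
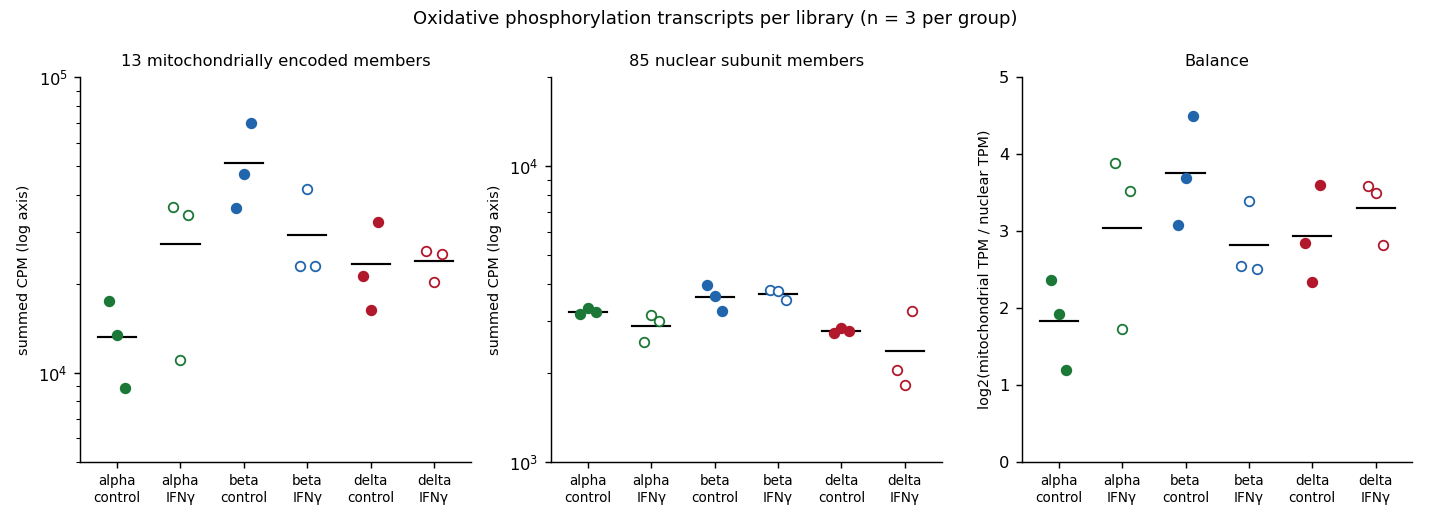
Summed CPM of the 13 mitochondrially encoded members (left, log axis), summed CPM of the 85 nuclear subunits (middle, log axis) and their balance in log2 (right) for each of the 18 libraries by cell type; filled points are control, open points IFNγ and bars are group means. The control beta libraries lie between 36080 and 70110 CPM on the left, above all control alpha and delta libraries, whereas the nuclear sums lie between 1820 and 3970 CPM in all groups.

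Control alpha cells were compared with control beta cells first. Of the 103 members tested, 17 were lower in alpha cells and 0 were higher (edgeR, adjusted p under 0.05), while over all genes 10.1% were called lower and 9.56% higher. The 17 were all 13 mitochondrial members and 4 of the 90 nuclear members tested. The mitochondrial members had a median log2 fold change of -2.04 (range -2.92 to -1.52), the nuclear members -0.16 and all genes 0.04. Without beta control replicate 3 the mitochondrial median was -1.76 with 12 called, the nuclear median -0.27 with 3 called.

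The catalytic complex IV subunit mt-Co1 had 5015, 3691 and 3326 CPM in control alpha and 9712, 11190 and 18240 CPM in control beta libraries. No alpha library reached the beta range, and the log2 fold change was -1.70 (SE 0.36, adjusted p = 0.00211). For mt-Cytb, the cytochrome b of complex III, the values were 1780, 1315 and 786.4 against 3595, 4484 and 6174 CPM (log2 fold change -1.88, SE 0.38, adjusted p = 0.00157). Among the 7 complex I messages, mt-Nd4 had 1884, 1387 and 875.0 against 4000, 5375 and 9601 CPM (-2.19, SE 0.49, adjusted p = 0.00316), mt-Nd5 fell by 2.04 on the log2 scale and mt-Nd6, the one member transcribed from the opposite strand, fell by 2.31. The shortest complex I message, mt-Nd4l, had the mildest difference, -1.52 (SE 0.36, adjusted p = 0.00537), and its reads share ground with mt-Nd4, which overlaps it on the same strand. Of the ATP synthase messages, mt-Atp6 had a difference of -2.44 (SE 0.62, adjusted p = 0.00866) and mt-Atp8 one of -1.91 (SE 0.62, adjusted p = 0.0371). With the reads on Gm10925 added, the mt-Atp6 difference was -2.28 (SE 0.5, adjusted p = 0.00298). All 13 were lower in each control alpha library than in each control beta library. The share of all genes without overlap is not given. Nuclear members that did not pass, such as Ndufa9 (adjusted p = 0.513) and Atp5h (adjusted p = 0.545), did not overlap either.

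The size of the mt-Co2 difference depended on its copy. On its own mt-Co2 had 27.02, 74.14 and 55.04 CPM in control alpha and 451.1, 460.5 and 269.9 CPM in control beta libraries, a log2 fold change of -2.92 (SE 0.52, adjusted p = 0.000477). With the reads on Gm28661 added, the levels became 1740, 1530 and 584 against 3440, 4520 and 5790 CPM and the difference became -1.83 (SE 0.48, adjusted p = 0.00994), within the range of the other members.

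**Figure D2:**
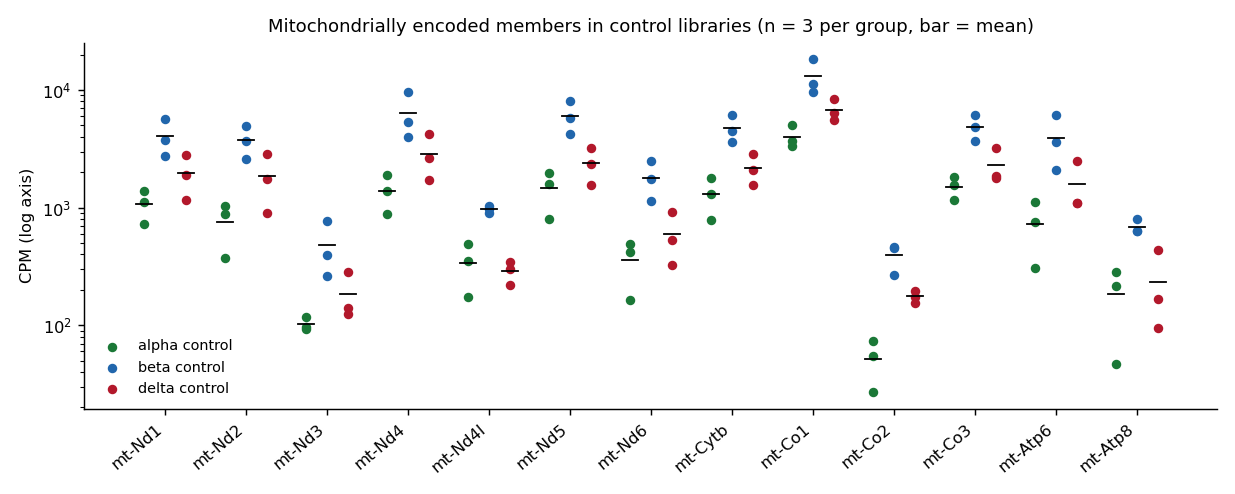
CPM (log axis) of each of the 13 mitochondrially encoded members in the control libraries, with 3 points per cell type. Each member is lower in every alpha library than in every beta library, and the mt-Co2 points leave out the reads placed on the nuclear copy.

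The 4 nuclear members that were lower in alpha than beta cells were 3 subunits of complex IV and 1 of complex II. Cox7a2l, a relative of the complex IV subunits, had 53.03, 55.8 and 44.89 CPM in control alpha and 107.5, 82.19 and 80.49 CPM in control beta libraries, without overlap (log2 fold change -0.81, SE 0.19, adjusted p = 0.00522). Its IFNγ-treated libraries had 49.41, 59.96 and 51.35 CPM in alpha and 110.5, 93.88 and 94.65 CPM in beta cells, also without overlap. Cox7b, a small accessory subunit, had 17.43, 16.86 and 11.01 against 36.04, 35.47 and 32.56 CPM (-1.20, SE 0.30, adjusted p = 0.00814). Sdha, the succinate-binding flavoprotein of complex II, had 96.18, 99.96 and 95.01 against 146.9, 128.9 and 146.4 CPM (-0.54, SE 0.16, adjusted p = 0.0252). Cox5a, a structural subunit named here after its values were seen, had 14.82, 15.66 and 12.61 against 22.36, 21.43 and 24.8 CPM (-0.67, SE 0.21, adjusted p = 0.0298). The groups did not overlap for any of the 4, as was also seen for some nuclear members that did not pass. The calls of Sdha and Cox5a each failed under 7 of 28 alternatives, the Cox7b call failed without alpha control replicate 3 (adjusted p = 0.0587), and Cox7a2l was called under all 28. Antisense genes overlap Sdha (Gm16125) and Cox5a (Gm26631), and the use of strand in counting is not stated by the labels or methods. None of the 36 nuclear complex I members, 8 of complex III, 16 tested of complex V or 13 assembly factors passed the test, with medians of -0.08, -0.02, -0.15 and -0.38. At an unadjusted p under 0.05, 1 complex I member was higher and 3 were lower, 1 of complex III was lower, complex V had 1 in each direction and 1 assembly factor was lower. The share of all genes at this unadjusted threshold is not given.

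Control delta cells were then compared with the same control beta libraries. Here 15 of the 103 members were lower in delta cells and 0 were higher, against 9.11% of all genes called lower and 11.4% called higher. The mitochondrial members made up 4 of the 15 and nuclear members 11, spread over complexes I (3), II (2), IV (3) and V (3). The 11 were of 90 nuclear members tested, beside 9.11% of all genes called lower, and whether these shares differ was not tested. The median log2 fold change was -1.16 for mitochondrial members, all 13 of them negative, -0.32 for nuclear members and 0.05 for all genes. The mitochondrial median was -0.89 without beta control replicate 3 and -1.53 without delta control replicate 3. By group the nuclear medians were -0.32 in complex I, -0.51 in complex II, -0.14 in complex III, -0.44 in complex IV and -0.39 in complex V, while assembly factors had 0.15.

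Of the mitochondrial messages, mt-Nd4l had 298.8, 218.3 and 345.2 CPM in control delta against 1027, 980.1 and 900.0 CPM in control beta libraries (log2 fold change -1.75, SE 0.36, adjusted p = 0.00167). The other 3 that passed were mt-Nd6 (-1.59, adjusted p = 0.041), mt-Nd5 (-1.34, adjusted p = 0.0331) and mt-Cytb (-1.14, adjusted p = 0.0363). Delta and beta libraries did not overlap for any of the 4, nor for mt-Co1, mt-Co2, mt-Co3 and mt-Atp8, which did not pass. With date as a fixed term the calls of mt-Nd6, mt-Nd5 and mt-Cytb were lost and 2 mitochondrial members were called. The counts also turned on the libraries, since 1 mitochondrial member was called without beta control replicate 3, 7 without delta control replicate 3 and 9 without alpha IFNγ replicate 2. On the 1 date carried by the deposited names of libraries from both groups, the delta library (replicate 3) had a mitochondrial sum 0.54 lower on the log2 scale than beta replicate 2 (value -0.54), with 0 of 13 members higher. Its nuclear sum differed by -0.40 and its balance by only -0.09, against -0.82 over all control libraries.

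Of the 13 nuclear complex IV members tested, 3 were lower in delta than beta cells. Cox6a2, the isoform best known from heart and skeletal muscle, had 0 counts in every delta library and 3.846, 5.62 and 1.978 CPM in control beta libraries, so it was at least 38.9-fold lower in control delta cells (0 against 88 counts, with a floor of 3 counts over the group). It is among the 15 called, but it passed the filter only through its beta cell counts and so had to differ, and it is given as a description. In control alpha libraries it had 0, 1.74 and 0.1069 CPM. Replicate 2 also had the most Ins2 of these libraries (6500 CPM against 1730 and 633), and the part of beta cell RNA in this value was not tested. Cox7a2l had 40.17, 36.87 and 50.03 CPM in control delta libraries, below every beta library (log2 fold change -1.09, SE 0.19, adjusted p = 0.000405). The ubiquitous isoform Cox6a1 had 36.17, 24.22 and 20.66 CPM in delta and 65.52, 51.63 and 38.65 CPM in beta libraries (-0.94, SE 0.32, adjusted p = 0.0453), a call that failed under 10 of 28 alternatives.

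In complex I, Ndufv3, an accessory subunit of the NADH-binding arm, had 22.9, 16.54 and 19.2 CPM in control delta against 50.85, 49.17 and 27.08 CPM in control beta cells (-1.12, SE 0.25, adjusted p = 0.00317). Ndufb9, of the membrane arm, had 15.55, 13.52 and 14.53 against 35.61, 31.03 and 25.71 CPM (-1.08, SE 0.26, adjusted p = 0.00512), and it overlaps the annotated gene Gm49356 on the same strand. Ndufa10, also a member named after its values were seen, had a difference of -0.65 (adjusted p = 0.0157). In complex II, the membrane anchor Sdhd had 18.99, 31.14 and 21.7 against 47.29, 38.75 and 37.28 CPM (-0.78, SE 0.23, adjusted p = 0.0211) and Sdhb a difference of -0.58 (adjusted p = 0.0359).

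In complex V, 3 of 16 tested members were lower in delta than beta cells. Atp5a1, the alpha subunit of the catalytic head, had 202.8, 221.7 and 197.7 CPM in control delta against 339.9, 320.2 and 300.2 CPM in control beta libraries (-0.63, SE 0.17, adjusted p = 0.0136). The c subunit, which forms the rotating ring, is made from 3 genes with the same mature protein. Atp5g1 had 29.39, 33.3 and 20.14 against 55.98, 52.57 and 37.58 CPM (-0.82, SE 0.26, adjusted p = 0.0329) and Atp5g3 had a difference of -0.65 (SE 0.21, adjusted p = 0.034). The groups did not overlap for any of these 3, nor for Atp5b, Atp5k and Atp5mpl, none of which passed. Atp5g2 (-0.77, adjusted p = 0.142) and the catalytic subunit Atp5b (-0.44, adjusted p = 0.0703) did not pass the test. Each of the calls of Ndufa10, Sdhd, Sdhb, Atp5a1, Atp5g1 and Atp5g3 failed without delta control replicate 1, and the whole comparison had 7 calls without beta control replicate 2, 9 without delta control replicate 1, 13 without delta control replicate 3 and 17 without beta control replicate 3.

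Delta and alpha cells differed in few members. Of the 103, 3 were higher and 4 lower in control delta cells, beside 10.9% and 8.77% of all genes; whether these shares differ was not tested. The mitochondrial median was 0.76, with 12 of 13 positive, and the nuclear median was -0.20; without delta control replicate 3 they were 0.48 and -0.16. Atp5e, the small epsilon subunit of complex V, had 15.6, 23.4 and 15.5 CPM in delta and 42.4, 43.5 and 39.9 CPM in alpha libraries (log2 fold change -1.21, SE 0.32, adjusted p = 0.0107). The c-subunit gene Atp5g2 had 26.91, 29.95 and 17.02 against 47.07, 52.19 and 70.54 CPM (-1.20, SE 0.36, adjusted p = 0.0228). Sdhd and Ndufv3, lower in delta than beta cells above, were also lower than in alpha cells, by -0.96 (SE 0.23, adjusted p = 0.00595) and -0.76 (SE 0.25, adjusted p = 0.0388); both comparisons share the control delta libraries. Higher in delta cells were Cox7b (26.34, 22.82 and 43.81 against 17.43, 16.86 and 11.01 CPM, 1.04, SE 0.30, adjusted p = 0.0209) and Sdhaf4, an assembly factor of complex II (11.74, 9.948 and 11.52 against 5.085, 4.818 and 4.061 CPM, 1.25, SE 0.38, adjusted p = 0.0274). The third, mt-Co2 (1.75, adjusted p = 0.0182), lost its call with the reads on its nuclear copy added (0.74, adjusted p = 0.281). With offsets for the GC content of genes, described below, the calls of Atp5g2, Cox7b and mt-Co2 were lost. Without alpha control replicate 3 only 1 member passed, without delta control replicate 3 there were 2, and without alpha IFNγ replicate 2 there were 13.

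**Figure D3:**
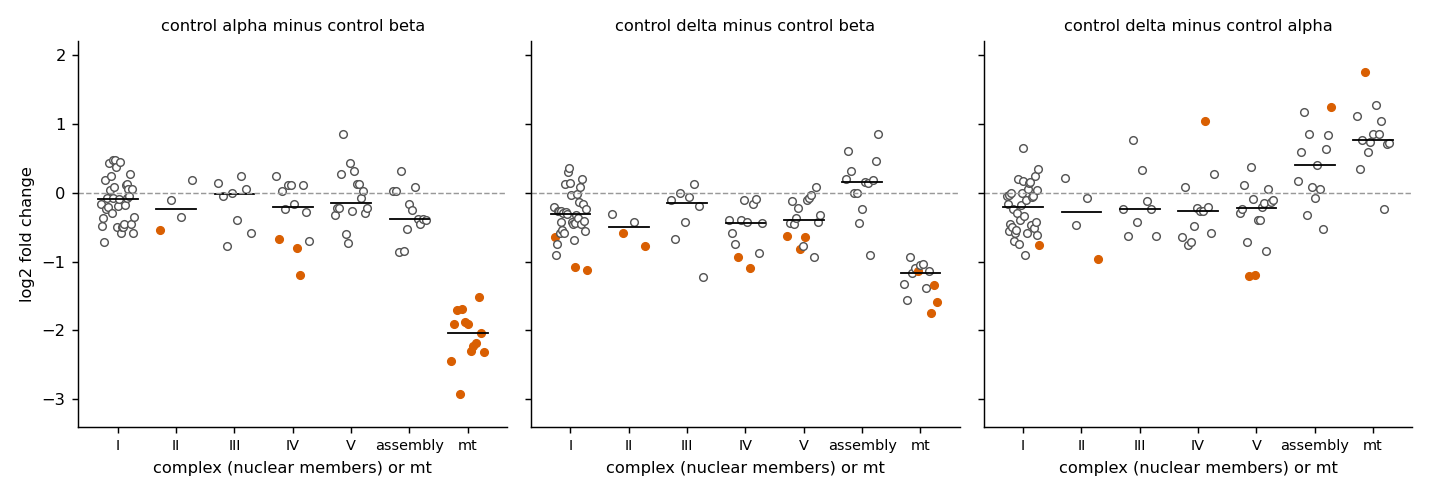
Log2 fold change of each tested member between control cell types, in strips by complex for nuclear members and 1 strip for mitochondrial members; orange points have an adjusted p under 0.05, bars are medians of the points drawn and Cox6a2 is left out. In alpha against beta cells the mitochondrial strip has a median of -2.04 with all 13 points called, while the nuclear strips lie near 0.

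The mitochondrial messages have a lower GC content than nuclear ones, and libraries differed in how they recovered low-GC and high-GC genes. Median GC content was 37.1% (range 31.9 to 41.1) over mitochondrial members, 50.0% (36.7 to 63.3) over nuclear members and 49.6% over tested protein-coding genes. A GC balance was computed per library as the median log2 deviation of the 3301 protein-coding genes of lowest GC content minus that of the 3301 of highest. It was -0.45, -0.60 and -0.76 in control alpha, -0.55, -0.16 and 0.28 in control beta, and -0.19, -0.15 and 0.90 in control delta libraries. With IFNγ it was 0.82, -0.52 and 0.84 in alpha, -0.52, -0.18 and -0.39 in beta, and 0.61, 0.16 and 0.77 in delta cells. The alpha libraries with the highest mitochondrial sums, IFNγ replicates 1 and 3, thus had the highest GC balance of their cell type.

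Nuclear members alone followed GC content as well. Across 89 nuclear members without Cox6a2, Pearson's r between GC content and the log2 fold change was -0.74 for IFNγ in alpha cells, 0.49 in beta cells and -0.48 in delta cells (Spearman's rho -0.72, 0.49 and -0.45). Between control cell types r was 0.37 for alpha against beta, -0.45 for delta against beta and -0.64 for delta against alpha cells (rho 0.34, -0.45 and -0.68). These are descriptions across genes measured in the same libraries, and genes are not independent replicates. With offsets that remove the relation to GC content in each library, the mitochondrial median of control alpha against beta cells was -1.83 and 12 of 13 members were called. For delta against beta cells it was -1.66 with 13 called, and for delta against alpha cells 0.18 with 0 called. Beta control replicate 1 and alpha control replicate 1, which carry the same date in their deposited names, had a GC balance of -0.55 and -0.45. Between them (alpha minus beta) the mitochondrial sum differed by -1.05 on the log2 scale, the nuclear sum by -0.33 and the balance by -0.72. On the other shared date the values were -1.81, -0.14 and -1.77, and 0 of 13 members were higher in alpha cells on either date. Acinar transcripts were lower in control alpha than beta libraries for 13 of the 15 markers tested, higher in delta than beta libraries for 2 and higher in delta than alpha libraries for all 15, and their part in these differences was not tested.

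**Figure D4:**
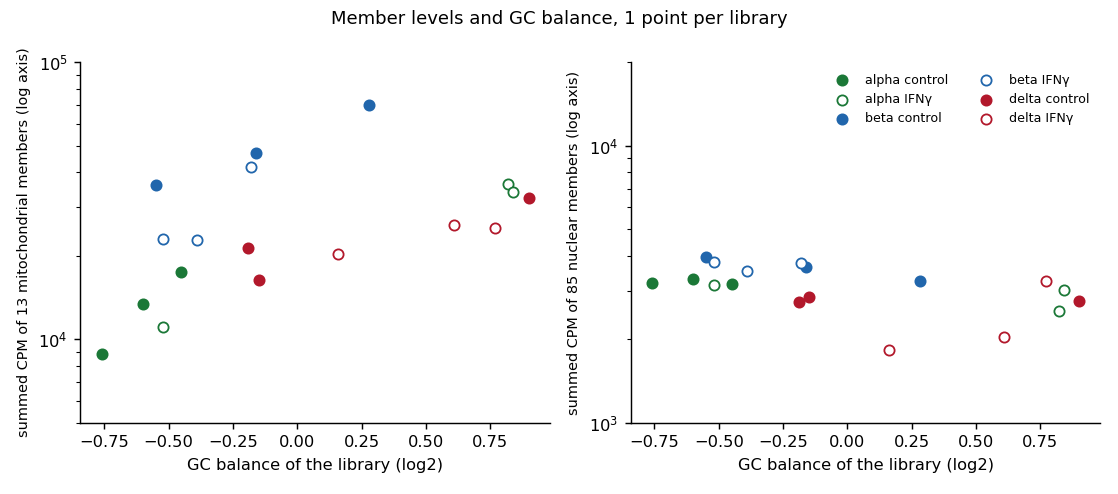
Summed CPM of the mitochondrial members and of the 85 nuclear subunits (both on log axes) plotted for each library against its GC balance (log2, low-GC minus high-GC genes). Alpha IFNγ replicates 1 and 3 and delta control replicate 3 lie to the right, at 0.82, 0.84 and 0.90, whereas the control alpha libraries lie between -0.76 and -0.45.

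IFNγ was compared with control within each cell type. No member passed edgeR's test in alpha, beta or delta cells, and DESeq2 and limma-voom also called 0 in each. Without the filter on low counts the same test called 18 members in alpha cells (10 mitochondrial higher) and 7 in beta cells (all mitochondrial and lower), and within the 2 shared dates with a date block it called 1 and 2. The shares of all genes called in these other fits are not given. Over all genes, at an adjusted p under 0.05, IFNγ raised 0.94% in alpha, 1.06% in beta and 1.21% in delta cells and lowered 0.0346%, 0.00577% and 0.185%. At an unadjusted p under 0.05, alpha cells had 10 mitochondrial members higher and 5 nuclear members higher and 17 lower, beta cells had 5 mitochondrial members lower, and delta cells had 9 nuclear members lower. The shares of all genes at this unadjusted threshold are not given, and whether the members exceed them was not tested.

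In alpha cells all 13 mitochondrial members had a positive difference with IFNγ, with a median of 1.22 (range 0.25 to 1.55) and adjusted p-values from 0.156 to 0.696. The complex I message mt-Nd2 had 3197, 632.1 and 2852 CPM with IFNγ and 1029, 883.9 and 373.0 CPM in control libraries (log2 fold change 1.55, SE 0.54, adjusted p = 0.156). For mt-Co1 the values were 9315, 3540 and 8064 against 5015, 3691 and 3326 CPM. Replicates 1 and 3 were above every control library and replicate 2 was within the control range for both genes. Without alpha IFNγ replicate 2, 31 members were called, of which 11 were mitochondrial and higher, with 4 nuclear members higher and 16 lower, and the mitochondrial median was 1.63. The share of all genes called in that refit is not given, and whether the members exceed it was not tested. On the shared date that holds replicate 2 the mitochondrial sum had a difference of -0.66 with 1 of 13 members positive, and on the other it had 1.34 with all 13 positive. With GC offsets the mitochondrial median was 0.27. The share of counts on non-mitochondrial rRNA was 25.1%, 27.2% and 11.5% in control alpha and 3.14%, 20.6% and 10.7% in IFNγ alpha libraries. It was highest among the treated in replicate 2, and its part in the difference was not tested.

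The nuclear members in alpha cells had a median of -0.18 with IFNγ, with 32 of 90 positive, against -0.01 over all genes. By group the medians were -0.21 in complex I, -0.35 in complex II, -0.44 in complex III, -0.17 in complex IV, -0.19 in complex V and 0.26 for assembly factors. Atp5g1 had 9.572, 21.46 and 17.99 CPM with IFNγ against 25.57, 33.32 and 28.96 CPM (-0.84, SE 0.27, adjusted p = 0.146). Cox4i1, the ubiquitous isoform of the subunit that regulates cytochrome c oxidase, had 21.56, 50.24 and 29.4 against 61.6, 59.55 and 60.28 CPM (-0.84, SE 0.33, adjusted p = 0.177); the annotated gene Gm20388 overlaps it on the same strand. Neither pair of groups overlapped, and neither gene passed the test. In the other direction Uqcrb, a small complex III subunit, had 53.46, 23.46 and 52.6 against 27.6, 23.42 and 20.09 CPM (0.87, SE 0.36, adjusted p = 0.189) and Cox7b had 27.42, 15.94 and 32.68 against 17.43, 16.86 and 11.01 CPM (0.75, SE 0.30, adjusted p = 0.179). Both overlapped through replicate 2.

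In beta cells the mitochondrial members had a median of -0.91 with IFNγ, with 0 of 13 positive and adjusted p-values from 0.91 to 1.0, and the nuclear members had a median of 0.06. Values for mt-Co1 were 6807, 11590 and 8199 CPM with IFNγ against 9712, 11190 and 18240 CPM, and the groups overlapped. On the 2 shared dates the mitochondrial sums differed by -0.65 and -0.17, and with GC offsets the median was -0.62. Without beta control replicate 3 the mitochondrial median was -0.54 with 0 of 13 positive and the nuclear median -0.03. The share of counts on non-mitochondrial rRNA was 27.2%, 15.9% and 5.28% in control and 34.5%, 23.7% and 19.5% in IFNγ beta libraries, and its part was not tested. No group of nuclear members had a median beyond 0.17 in size.

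In delta cells the mitochondrial median was 0.03, with 9 of 13 positive and adjusted p-values from 0.594 to 1.0. The nuclear median was -0.19 with 13 of 90 positive, against -0.05 over all genes. Without delta control replicate 3 the medians were 0.44 (11 of 13 positive) and -0.22. The lowest nuclear medians by complex were -0.39 in complex III and -0.29 in complex II. Atp5g1 had 17.68, 14.91 and 16.14 CPM with IFNγ against 29.39, 33.3 and 20.14 CPM (-0.77, SE 0.27, adjusted p = 0.255), and Atp5a1 had 134.3, 128.8 and 182.5 against 202.8, 221.7 and 197.7 CPM (-0.48, SE 0.17, adjusted p = 0.271). Neither overlapped or passed the test. Cox8a had 18.37, 22.93 and 22.95 against 37.41, 52.33 and 22.11 CPM (-0.80, SE 0.34, adjusted p = 0.378), overlapping through delta control replicate 3. Delta cell markers summed to 17000 to 37700 CPM in control and 11200 to 16700 CPM in IFNγ delta libraries, without overlap, with Sst at 9560, 14000 and 14800 CPM in the treated ones, and their part in these differences was not tested. No date holds both treatments of delta cells, so treatment and date cannot be told apart there.

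The effects of IFNγ were compared between cell types by the interaction in the same fit. No member was called in any of the 3 interactions, nor was any gene (0.0%). DESeq2 and limma-voom also called 0 members, whereas edgeR without the filter on low counts called 14 for alpha minus beta, 3 for delta minus beta and 3 for delta minus alpha. The alpha effect minus the beta effect had a mitochondrial median of 1.94 with all 13 positive, 11 of them and 14 nuclear members (4 higher, 10 lower) at an unadjusted p under 0.05, and adjusted p-values from 0.369 to 0.551. For mt-Atp6 it was 2.86 (SE 0.85), or 2.41 (SE 0.69) with the reads on its identical nuclear copy Gm10925 added, and for mt-Nd2, which has no copy there, 2.63. Without alpha IFNγ replicate 2 this interaction had 23 members called, 10 of them mitochondrial and higher. The shares of all genes called in that refit and in the fit without the filter are not given. The delta effect minus the beta effect had a mitochondrial median of 1.06 with 1 mitochondrial and 4 nuclear members at an unadjusted p under 0.05, and the delta effect minus the alpha effect had -1.03, with 1 and 2. For the counts at an unadjusted p under 0.05 the shares of all genes are not given, and whether the members exceed them was not tested. These interactions share the treated and control libraries of the cell types named.

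**Figure D5:**
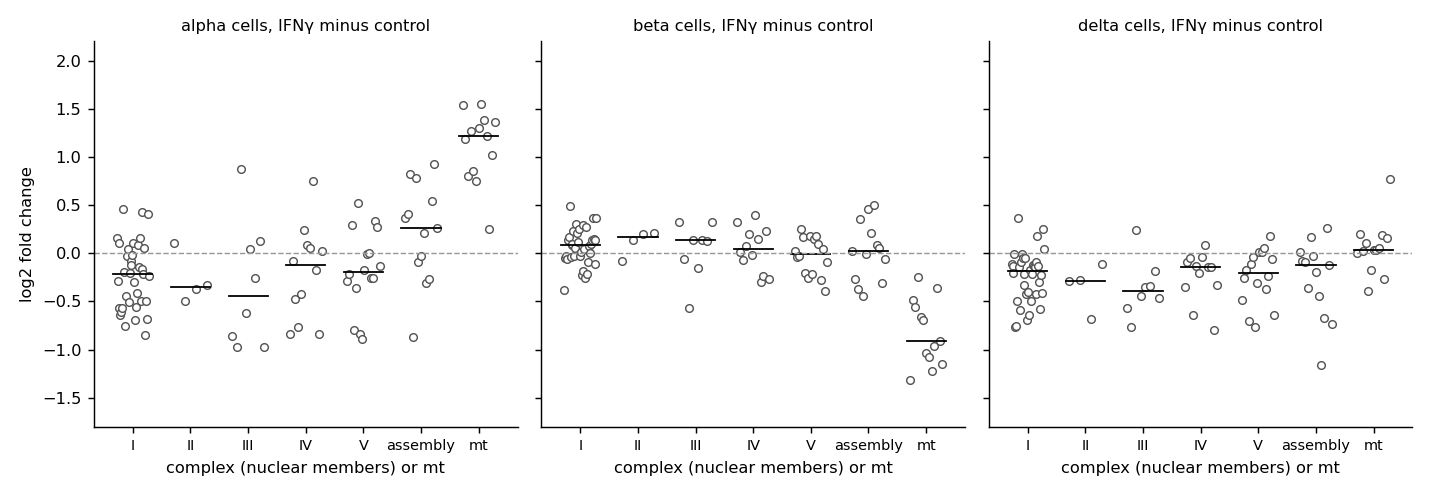
Log2 fold change with IFNγ of each tested member in alpha, beta and delta cells, in strips by complex for nuclear members and 1 strip for mitochondrial members; bars are medians, orange would mark an adjusted p under 0.05 and Cox6a2 is not drawn. No point is orange; the mitochondrial medians are 1.22 in alpha, -0.91 in beta and 0.03 in delta cells.

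Several complex IV and V subunits have alternative isoforms, and the ubiquitous ones were the abundant ones in islet cells. Cox4i1 had mean levels of 65.36 TPM in control alpha, 45.34 in beta and 36.88 in delta cells, whereas the hypoxia-linked isoform Cox4i2 had 1 count over all 18 libraries. Cox6a1 had 63.04, 63.63 and 35.78 TPM, and Cox7a2 had 45.45, 44.09 and 35.06. The muscle isoforms Cox7a1 and Cox8b had 12 and 0 counts over all libraries, Cox7b2 had 7, Cox6b2 had 37 and Cox8c had 0. Ndufa4, now counted with complex IV, had 31.94, 46.51 and 39.64 TPM, and its relative Ndufa4l2 had 25 counts. These members and an extra Atp5o entry with 2 counts were the 8 that did not reach the filter.

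Nuclear respiratory genes are known targets of NRF1, of ETS factors such as GABPA, and of YY1. RefSeq promoters of 300 bases in GRCm38.p6 were matched for 78 nuclear members and searched on both strands for the NRF1 core (GCGCA followed by its reverse complement TGCGC), the ETS core CCGGAAGT and the YY1 core AAGATGGC. No member promoter held more than 1 kind of core. The NRF1 core was in 7 member promoters (8.97%) against 264 of 27025 promoters in all (0.977%), the ETS core in 5 (6.41%) against 1081 (4.0%) and the YY1 core in 9 (11.5%) against 778 (2.88%). Of the called nuclear members, Cox6a1 and Atp5g2 held the NRF1 core. One promoter for each core is shown with the matches in capitals, Cox6a1 for its difference between delta and beta cells and Cox8a and Ndufc1 as abundant subunits; they lie on the minus strand at chr5:115348909-115349208, chr19:7217567-7217866 and chr3:51408906-51409205. The ETS matches in Cox8a read as the reverse complement.
Cox6a1: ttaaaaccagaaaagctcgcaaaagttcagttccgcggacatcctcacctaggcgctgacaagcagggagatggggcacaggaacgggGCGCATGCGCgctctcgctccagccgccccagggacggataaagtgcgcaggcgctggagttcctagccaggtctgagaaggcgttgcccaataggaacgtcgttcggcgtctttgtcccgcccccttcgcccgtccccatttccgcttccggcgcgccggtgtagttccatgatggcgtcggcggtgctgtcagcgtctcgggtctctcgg
Cox8a: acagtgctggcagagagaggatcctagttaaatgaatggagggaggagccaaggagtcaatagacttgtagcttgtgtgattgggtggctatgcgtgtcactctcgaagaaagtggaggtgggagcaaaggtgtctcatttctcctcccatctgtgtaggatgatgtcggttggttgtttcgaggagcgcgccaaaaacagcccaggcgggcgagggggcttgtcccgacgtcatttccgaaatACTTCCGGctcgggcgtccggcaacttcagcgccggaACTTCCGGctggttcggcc
Ndufc1: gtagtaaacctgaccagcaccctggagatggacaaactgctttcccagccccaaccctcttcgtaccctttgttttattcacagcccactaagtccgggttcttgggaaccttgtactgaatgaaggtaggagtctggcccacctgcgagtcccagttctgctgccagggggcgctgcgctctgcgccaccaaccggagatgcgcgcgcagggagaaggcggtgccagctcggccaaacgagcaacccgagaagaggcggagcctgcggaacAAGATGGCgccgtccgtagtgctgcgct
A match is a description of the letters and not a measured site.

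The factors that build, read and regulate these genes were described from lists. Of 28 genes for mitochondrial DNA and RNA handling, 0 passed in control alpha against beta cells (1 higher and 2 lower at an unadjusted p under 0.05). Over all genes 10.1% were called lower and 9.56% higher in that comparison. The shares were 9.11% and 11.4% for delta against beta cells, and 8.77% and 10.9% for delta against alpha cells. Lrpprc, which stabilises mitochondrial mRNAs, was lower in control delta cells than in beta cells (75.4 against 126 mean CPM, log2 fold change -0.75, SE 0.18, adjusted p = 0.00624) and than in alpha cells (-0.91, adjusted p = 0.00151). Mterf3, a repressor of mitochondrial transcription, was higher in delta than alpha cells (0.81, adjusted p = 0.0315). Of 14 tested regulators of biogenesis, Epas1 was higher in both alpha (4.46) and delta cells (5.55) than in beta cells. Its mean levels were low, at 4.26, 9.07 and 0.173 CPM in control alpha, delta and beta cells. Pparg was lower than in beta cells in both alpha (-3.49) and delta cells (-3.02). Ppard was lower in delta than beta (-0.83) and alpha cells (-1.37), and Pprc1 was lower in delta than alpha cells (-0.88). Of 37 assembly factors outside the prefixes, Taco1, the translational activator of mt-Co1, Tmem242 and Cox15, a haem A synthase, were lower in alpha than beta cells (-1.34, -0.85 and -0.61). Taco1 (-1.21), Cox15 (-0.80), Coa3 (-0.79) and Ecsit (-0.64) were lower in delta than beta cells. Of 78 mitochondrial ribosomal proteins, 1 was called in control alpha against beta cells (Mrps14, -0.90), beside 10.1% of all genes called lower and 9.56% higher. The list median was -0.03, and whether the shares differ was not tested. The 2 mitochondrial rRNAs, read from the same DNA, had a median of -1.21 in alpha against beta cells, with adjusted p-values of 0.0501 and 0.058 after a protocol that depletes rRNA. With IFNγ edgeR called 0 genes of these lists in any cell type. At an unadjusted p under 0.05 alpha cells had 6 higher and 2 lower of the DNA and RNA handling genes and 2 higher and 9 lower of the ribosomal proteins. For none of the unadjusted counts of these lists is the share of all genes given, and whether they exceed it was not tested.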

How the data were processed

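Whole-islet cultures were sorted and RNA of 18 populations was sequenced with a strand-specific, randomly primed low-input kit (Ovation SoLo) that depletes rRNA, in paired ends on a NextSeq. The authors aligned reads to GRCm38 with STAR 2.5.2b and quantified genes with RSEM (version not given in the sources used here). Per the file headers the deposited tables hold expected counts, TPM and FPKM per gene and library, and no replicates were pooled. The authors' FPKM values were not used. The authors tested genes with DESeq2 1.32.0 and a batch term; the labels give no batch, and dates (9 in all) were read from the deposited names.

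Here expected counts were rounded to whole numbers, filtered with filterByExpr (minimum count 10), scaled by TMM and tested with edgeR 4.0.16 (quasi-likelihood, R 4.3.3) in a fit of 6 group means over all libraries, with Benjamini-Hochberg adjustment over the 17338 genes tested and a threshold of 0.05. CPM compares libraries and TPM compares genes. SE values were derived from the fitted log2 fold change and the F statistic of its test. A comparison rests on 2 groups of 3 libraries, and an interaction on the treated and control groups of both cell types. Alternatives used DESeq2 1.42.0, limma 3.58.1 voom, other scalings, GC offsets, date, a replicate block, no filter, merged nuclear copies and each library left out. The merged copies and the comparison within 2 shared dates were chosen after seeing the data. The scripts were tested on simulated data. Expected counts split reads among similar genes, and 42 members had a fractional count in some library; 44 members overlap another gene. Symbols came from an annotation (GENCODE M21) of the same build and matched 55227 of 55487 identifiers; the study names a later release. Promoter sequences came from RefSeq GRCm38.p6.

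The members and lists were chosen with earlier results of these data known. Genes named were, per comparison, up to 8 called members in each direction by size, the 13 mitochondrial members, the 2 most abundant nuclear members of each complex in control beta cells, the alternative isoforms, and up to 4 called genes per list. The labels do not say that the 3 libraries of a group came from separate mice, although the study calls them independent, so p-values measure the spread between libraries. Control and IFNγ libraries of equal replicate number deviated from their group means with correlations of 0.223, 0.192 and 0.126 in beta cells. The values were 0.094, 0.054 and -0.194 in alpha and -0.048, 0.202 and 0.279 in delta cells, and they do not settle which libraries are pairs. Equal numbers carry the same date only in beta replicates 1 and 2. In alpha cells control replicates 1 and 2 share their dates with IFNγ replicates 2 and 3. The libraries' depth of 6128845 to 11531734 counts limits low members such as Cox6a2.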

Additional observations from a re-analysis of the deposited data

Results flagged for a closer look

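Uqcr10, a small complex III subunit and a member named after its values were seen, had differences of opposite sign with IFNγ in alpha and beta cells. In alpha cells it had 5.95, 16.54 and 11.31 CPM with IFNγ against 20.34, 22.62 and 18.49 CPM, all below control (log2 fold change -0.86, SE 0.41, edgeR adjusted p = 0.226). In beta cells it had 23.98, 23.11 and 23.08 CPM against 23.07, 19.9 and 12.63 CPM, all above control (0.33, SE 0.40, adjusted p = 1.0). The fitted difference of the effects was -1.20 (SE 0.57, adjusted p = 0.376), which did not pass the threshold.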

How the results depend on the processing

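The balance is a ratio of sums and not a fitted value, so alternative fits such as GC offsets were not applied to it. Its differences kept their sign under each alternative scale and without each library in turn. However, IFNγ in alpha cells gave -0.64 on the shared date that holds alpha IFNγ replicate 2 and 1.6 on the other. The ranges without 1 library at a time were 0.80 to 1.88 for IFNγ in alpha, -1.27 to -0.57 in beta and 0.08 to 0.70 in delta cells, and -2.26 to -1.56 for alpha against beta, -1.16 to -0.45 for delta against beta and 0.77 to 1.4 for delta against alpha cells. Of 39 single calls of members, 17 were kept under each of 28 alternatives and none reversed. Without a filter on low counts, 18 members were called for IFNγ in alpha and 7 in beta cells, 31 for delta against beta (13 mitochondrial), 24 for delta against alpha (8 mitochondrial), and 14, 3 and 3 in the interactions alpha minus beta, delta minus beta and delta minus alpha. Within 2 shared dates with a date block the counts for IFNγ were 1 in alpha and 2 in beta cells. For delta against beta cells (15 called, 4 mitochondrial), DESeq2 called 25 (7 mitochondrial), limma-voom 7 mitochondrial, the date term 27 (2 mitochondrial), GC offsets 29 (13 mitochondrial) and a fit of only the groups compared 8 mitochondrial. For delta against alpha cells (7 called, 1 mitochondrial), the date term gave 13 (0 mitochondrial), GC offsets 4 (0 mitochondrial), only the groups compared 13, and merged nuclear copies 0 mitochondrial. Without 1 library at a time the counts ran from 0 to 31 for IFNγ in alpha (31 without alpha IFNγ replicate 2), 0 to 0 in beta and 0 to 2 in delta cells (2 without delta IFNγ replicate 3), 12 to 19 for alpha against beta (mitochondrial 11 to 13), 7 to 25 for delta against beta (mitochondrial 1 to 9) and 1 to 13 for delta against alpha (mitochondrial 0 to 2), and 0 to 23, 0 to 0 and 0 to 0 in the interactions. The replicate block joined libraries of different dates, so it could not test a pairing by date. It gave 0, 0 and 0 members for IFNγ, 17, 17 and 7 for the control comparisons (mitochondrial 13, 4 and 1) and 0 in each interaction, and it changed no count by more than 1.5 times. The shares of all genes called under each alternative are not given, and the cause of these changes was not tested. Depth limits the low isoforms, and 3 libraries a group limit the mitochondrial sums, whose spread was wide.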

Other observations

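Enzymes that feed the respiratory chain were described from a list in the same way. Of 20 genes of the tricarboxylic acid cycle and its entry points, 3 were lower and 1 was higher in alpha than beta cells by edgeR, beside 10.1% and 9.56% of all genes. Pcx, pyruvate carboxylase, had 28.8 against 129 mean CPM (log2 fold change -2.16, SE 0.34, adjusted p = 0.000141), Fh1, fumarase, had a difference of -1.01, Me3, a mitochondrial malic enzyme, one of -3.99, and Glud1, glutamate dehydrogenase, one of 0.98. In delta against beta cells 4 were lower and 0 higher, beside 9.11% and 11.4% of all genes, among them Pcx at -3.79, Fh1 at -1.22 and Suclg1 at -0.82. In delta against alpha cells 5 were lower and 1 higher, beside 8.77% and 10.9% of all genes, with Me3 at 4.07 and Pcx at -1.62. Comparisons that name the same cell type share its control libraries.

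Of 27 electron carriers, carriers and porins, Higd1a was higher in alpha than beta cells (38.4 against 0.682 mean CPM, log2 fold change 5.73, SE 0.73, adjusted p = 1.74e-05), and lower in delta than alpha cells (-5.20). Gpd2, the mitochondrial glycerol-phosphate dehydrogenase of a NADH shuttle, had 21.4 mean CPM in delta against 172 in beta cells (-3.01, SE 0.23, adjusted p = 2.66e-08). Vdac1, a porin of the outer membrane, had a difference of -0.94, and the adenine nucleotide carriers Slc25a4 and Slc25a5 had -0.65 and -0.63. Of 18 tested genes of glycolysis and lactate handling, 2 were higher and 6 lower in alpha than beta cells, beside 9.56% and 10.1% of all genes, and 2 were higher and 10 lower in delta than beta cells, beside 11.4% and 9.11%. Whether these shares differ was not tested. Hk1, a hexokinase with high affinity for glucose, had 23.0 mean CPM in alpha against 0.463 in beta cells (5.52, SE 0.48, adjusted p = 3.36e-07). With IFNγ edgeR called 0 genes of these lists in any cell type, and at an unadjusted p under 0.05 alpha cells had 1 gene higher and 5 lower of the tricarboxylic acid cycle, 1 higher and 6 lower of the carriers, and 0 higher and 2 lower of glycolysis. The share of all genes at the unadjusted threshold is not given, and whether these counts exceed it was not tested.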
